A study of Mesocricetus auratus with 24 samples.

Results

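CpG methylation was compared between a senescent Syrian hamster (Mesocricetus auratus) culture, written SEN, and colonies of transformed morphology, written MTc. The 8 libraries, 4 of each, were chosen by sample title from the 24 libraries of the series. In the assay, fetal cells form colonies in conditioned medium, and colonies with altered growth are scored as transformed. Both groups had been exposed to B[a]P (benzo[a]pyrene) at 5 µg/mL, a combustion product whose metabolites bind DNA. The MTc libraries came from 4 separate colonies of transformed morphology grown for 19 to 25 days, and the labels give their cells as those of 1 male fetus. Per the labels, the SEN libraries were 4 technical replicates of 1 culture, which was derived from 1 transformed colony of an assay on pooled female and male fetuses, was typed as male by PCR, and was sampled on day 48 in senescence. Clone, fetal source and time in culture therefore change together between the groups and cannot be told apart. P-values on the SEN side measure technical spread within 1 culture. Other libraries serve here only for reference: 4 colonies of normal morphology after B[a]P (Nc, days 19 to 25, the same male fetus), 4 technical replicates of the SEN culture after it had bypassed senescence (SENbp, day 94), and 8 pools of colonies on day 9, 4 after B[a]P (BaP) and 4 after vehicle (DMSO at 0.2%).

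In mammalian DNA most CpG sites are methylated, whereas dense clusters of CpGs, the CpG islands found at many gene promoters, usually stay unmethylated. Maintenance methyltransferases copy the pattern at each cell division, and errors of maintenance and de novo methylation change it over many divisions. Senescence is a stable arrest of proliferation that primary cells enter after stress or repeated division, and escape from it is a step in the transformation of rodent cells in culture. Reduced representation bisulfite sequencing covers fragments rich in CpGs, and bisulfite converts their unmethylated cytosines, so that the percent of unconverted reads at a CpG is its methylation level. Such a level is an average over the cells of a library, and a few fully methylated cells cannot be told apart from many partly methylated ones.

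The SEN libraries listed 885970 to 1484688 CpG positions (strands apart) at a median coverage of 23 to 32 reads, and the MTc libraries 1264913 to 1483483 positions at 22 to 37 reads. Each position had at least 10 reads, and summed coverage was 39858141 to 52772391 reads in SEN and 46741884 to 67276906 in MTc. Only 118610 of the 2778000 positions listed in any of these libraries were listed in all 8. Reads were therefore summed over windows of 1 kb with at least 3 positions in every library, which gave 48608 windows with a median of 341 to 559 reads per library, a read being counted at each position it covers. The share of reads in each of 252 scaffolds differed between the groups by a log2 ratio of -0.241 to 0.168, and none passed 0.5 in either direction.

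Averaged over all windows, the senescent culture was slightly more methylated than the colonies. The window mean was 47.51, 48.24, 47.55 and 47.36% in SEN replicates 1 to 4, against 44.89, 46.13, 46.34 and 46.6% in the MTc colonies. Every SEN library lay above every colony, and the means differed by 1.675 percentage points (47.66 ± 0.392 against 45.99 ± 0.7587%, SD, n = 4 and 4; exact two-sided permutation test over 70 assignments, p = 0.02857, the smallest possible, adjusted p = 0.03629 over 47 tests). Taken as 1 culture against 4 colonies, the same order cannot give a p below 0.2. Over the 118610 shared positions the difference was 1.326 points (52.7 ± 0.3709 against 51.37 ± 0.7525%, exact permutation p = 0.02857), again with no overlap. Without any single SEN library this p was 0.05714 by the exact permutation test. The groups cannot come to overlap by leaving out a library, so their separation there adds nothing. With groups of unequal size the two-sided test also counts assignments of equal or larger difference in the opposite direction. The direction was widespread along the genome: of 141 scaffolds with at least 100 windows, 134 had a higher mean in SEN. Mean differences of scaffolds ranged from -1.423 points on KB708315.1 (104 windows) to 4.842 on KB708216.1 (207 windows), with a median of 1.761.

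The difference was largest in windows of low to intermediate methylation. Windows were classed by their mean level in the 8 day 9 pools, which are outside the comparison, so that a high or low value in a colony could not place a window in its class. Per the labels, however, the pools share their fetal source with MTc and not with SEN. A level particular to that source can thus enter both the class and MTc, and its effect on the differences was not tested. At windows of 20 to 50% in the pools (4540 windows), SEN held 46.69, 48.49, 47.41 and 46.17% and the colonies 39.24, 43.44, 42.02 and 44.07%. All SEN libraries were above all colonies there, by 4.996 points on average (47.19 ± 1.004 against 42.19 ± 2.149%, SD, n = 4 and 4). Windows of 5 to 20% (3620 windows) stood at 18.56, 19.36, 18.76 and 18.13% in SEN and at 12.64, 15.52, 14.18 and 15.59% in MTc, a difference of 4.224 points, also without overlap. The 16160 windows under 5% differed by 0.9727 points (2.774 ± 0.1182 against 1.802 ± 0.1867%), small in size but without overlap between the groups.

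Among methylated windows the difference was smaller. Windows of 50 to 80% (10817) differed by 1.631 points, 72.74 ± 0.6244 against 71.11 ± 1.436%. SEN was also higher, by 0.7194 points, at the 2317 windows of 95% or more (95.93 ± 0.1306 against 95.21 ± 0.243%). Each of these 5 classes reached p = 0.02857 (adjusted p = 0.03629, exact permutation test). The class of 80 to 95% (10584 windows) did not, because 1 colony at 88.71% lay above 3 of the SEN libraries: it stood at 88.76 ± 0.3772 against 88.04 ± 0.5955%, p = 0.1143 and adjusted p = 0.131 by the exact permutation test. Leaving out any 1 SEN library raised p to between 0.1143 and 0.1714 for the class of 50 to 80% and to 0.05714 for that of 95% or more, while the differences stayed at 1.324 to 1.767 and 0.6865 to 0.7828 points. The groups were of unequal size in these runs, and leaving out a library cannot make them overlap. In the same runs p stayed at 0.02857 (exact permutation test) for the classes under 5%, 5 to 20% and 20 to 50%. The difference at 20 to 50% exceeded that under 5% by 4.024 points and that at 80 to 95% by 4.284 points (exact permutation p = 0.02857 and adjusted p = 0.03629 for each contrast), contrasts chosen after the values had been seen.

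**Figure D1:**
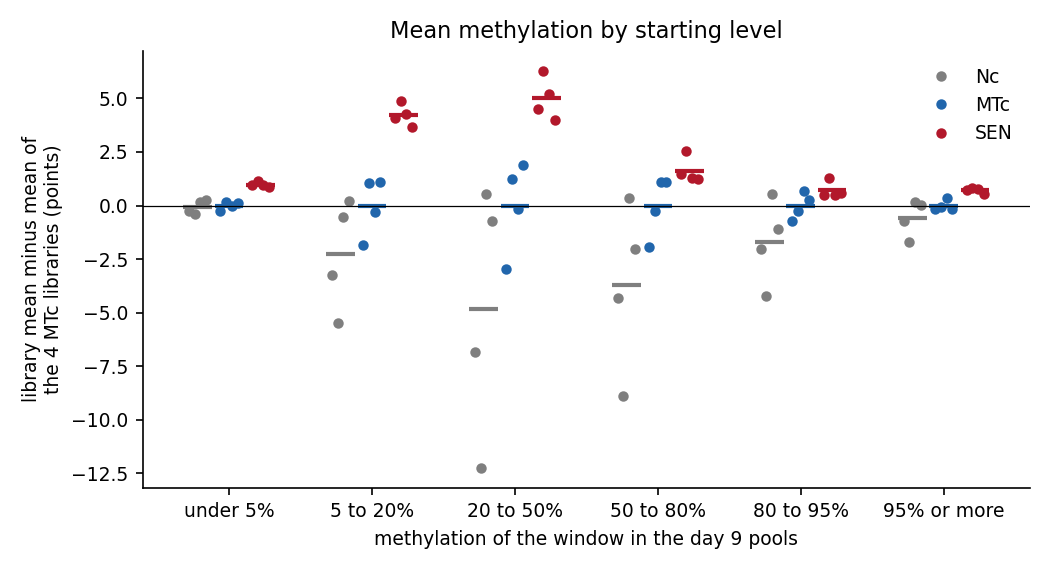
Mean methylation of each library (points) in 6 classes of windows by their level in the day 9 pools, as the difference in percentage points from the mean of the 4 MTc libraries, with group means as bars, for normal colonies (Nc, grey), transformed colonies (MTc, blue) and the senescent culture (SEN, red). SEN lies above every colony of transformed morphology in all classes but that of 80 to 95%, with the largest gap, 4.996 points, at 20 to 50%.

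The reference groups place these levels. At windows of 20 to 50% the vehicle pools held 34.79 ± 2.252%, the B[a]P pools 36.42 ± 0.4688% and the normal colonies 37.38 ± 5.908% (SD, n = 4 each). The bypass libraries of the same culture held 53.58 ± 0.107%, above SEN. At windows of 5 to 20% the order was the same, with 10.61% in vehicle pools, 11.08% in B[a]P pools, 12.22% in Nc, 14.48% in MTc, 18.7% in SEN and 26.74% in SENbp. At 95% or more it was not: the vehicle pools held 97.14 ± 0.5325% and the B[a]P pools 96.95 ± 0.6656%, above both SEN and MTc. The pools set these classes, so their own extremes there are partly a product of the choice. The normal colonies varied widely, from 29.94 to 42.71% at windows of 20 to 50%. The lowest of them, replicate 2, had 26.01% methylated reads in its whole library, against 45.47 to 47.41% in the other 3.

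Counted in percentage points, the difference went with CpG density in opposite directions in unmethylated and in intermediate windows. Density was counted as the CpG dinucleotides listed in a window in any library, and split into quartiles of 2 to 8, 9 to 15, 16 to 33 and 34 to 142 CpGs. Over all levels, SEN exceeded MTc by 1.249 points in the sparsest quartile (71.68 against 70.43%), by 1.627 in the second, by 2.392 in the third (42.93 ± 0.4185 against 40.54 ± 0.8725%) and by 1.449 in the densest (8.442 ± 0.1499 against 6.993 ± 0.2732%). All 4 quartiles were without overlap (exact permutation p = 0.02857, adjusted p = 0.03629). Without any 1 SEN library the 2 sparser quartiles had p of 0.05714 to 0.08571 by the same test, in groups of unequal size.

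Within the starting level of 20 to 50% the difference was larger in each denser quartile, at 2.552, 4.372, 7.098 and 9.563 points. The 365 densest windows of this level held 44.99, 46.04, 46.56 and 44.38% in SEN against 33.31, 37.23, 36.14 and 37.03% in MTc. All SEN libraries were above all colonies. In the colonies, dense windows of this level were less methylated than sparse ones, with a densest minus sparsest difference of -7.364 ± 0.3929 points, whereas in SEN it was -0.3526 ± 0.808. This contrast between the groups was 7.011 points (exact permutation p = 0.02857, adjusted p = 0.03629, chosen after the values had been seen). At 50 to 80% the differences by quartile were 1.085, 1.349, 2.865 and 5.121 points, of which the first and second did not pass the test (exact permutation p = 0.2857 and 0.2571). The 231 densest windows of that level held 76.8 ± 0.716% in SEN and 71.68 ± 2.559% in MTc. At 5 to 20% the differences by quartile were 2.874, 4.643, 4.427 and 4.378 points, with no rise beyond the second quartile.

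Unmethylated windows went the other way in percentage points. Under 5% the difference was 1.77 points in the sparsest quartile (491 windows, 5.433 ± 0.3916 against 3.663 ± 0.3914%) and 1.356, 1.17 and 0.8011 points in the denser ones. The densest of these, 10040 windows, held 2.195 ± 0.07943% in SEN and 1.394 ± 0.1258% in MTc. Their mean thus lay under 5% in both groups, as it did in the pools. The densest windows also stood lower in MTc than the sparsest (1.394 against 3.663%), and differences relative to the level were not tested. The densest minus sparsest contrast was -0.9693 points under 5%, 1.504 at 5 to 20% and 4.036 at 50 to 80% (exact permutation p = 0.02857 for each), and with shared positions alone the first and second of these had p = 0.05714, as had the first with starting levels from Nc (-0.8982 points). Their size depended on the setting: the contrast at 5 to 20% was 2.909 points at 20 reads and 2.864 on shared positions, that at 50 to 80% was 10.47 on shared positions, and that under 5% was -1.49 at 20 reads. In all 24 classes of level and density the mean was higher in SEN, and 17 passed the test (adjusted p = 0.03629, exact permutation). The 7 that did not were the pair of sparser quartiles at 50 to 80%, the 3 denser quartiles at 80 to 95% (0.4389, 0.9447 and 1.294 points) and the 2 denser ones at 95% or more (0.1462 and 0.4258 points).

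**Figure D2:**
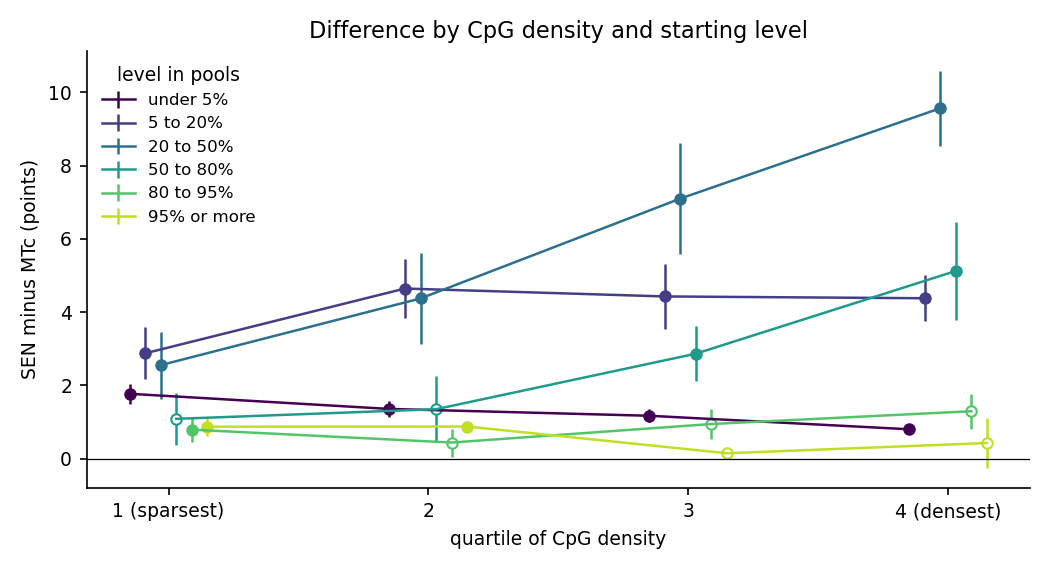
Mean methylation in SEN minus MTc (percentage points) by quartile of CpG density, 1 line per starting level in the day 9 pools, with error bars of 1 standard error of the difference over 4 and 4 libraries, filled where the groups do not overlap and open where they do. The line for 20 to 50% climbs from 2.552 to 9.563 points and that for under 5% descends from 1.77 to 0.8011.

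The distribution of window levels moved accordingly. Windows under 20% made up 39.07, 39.13, 38.9 and 39.48% of windows in SEN against 41.78, 40.59, 40.7 and 40.23% in MTc, a difference of -1.68 points without overlap. Windows over 80% made up 32.64 ± 0.6283% in SEN and 31.12 ± 0.8865% in MTc, 1.52 points more (exact permutation p = 0.02857 and adjusted p = 0.03629 for both shares). The share at 20 to 80% was 28.21 ± 0.7079 against 28.05 ± 0.4596%, with p = 0.6857 by the exact permutation test. Without any 1 SEN library, the share over 80% differed by 1.212 to 1.671 points with p of 0.05714 to 0.08571 by that test, in groups of unequal size.

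Single windows with clear differences were few, and more of them were higher than lower in the senescent culture. A quasi-binomial model of methylated and unmethylated reads over the 8 libraries called 148 of 48608 windows higher in SEN (0.304%) and 40 lower (0.0823%), at an adjusted p under 0.05 and at least 10 points between the group means. The 148 lay on 87 scaffolds and had a median difference of 36.29 points (10.15 to 76.17), with medians of 19.15% in MTc and 68.98% in SEN. They were denser than windows at large, with a median of 26.5 CpGs against 15 in all windows. The 40 lower windows had a median difference of -39.83 points (-84.11 to -19.06), medians of 84.25% in MTc and 28.74% in SEN, and a median of 12 CpGs. Of the called windows, 139 of the higher and 38 of the lower had groups that did not overlap. Over all windows the 4 SEN libraries lay above the 4 colonies by at least 10 points in mean in 1677 windows (3.45%) and below them in 799 (1.64%). At 40 points or more these counts were 255 and 104.

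These calls compare libraries, and they rest on the technical replicates. Leaving out 1 SEN library left 15, 29, 28 and 39 calls (without replicates 1, 2, 3 and 4) in place of 188, and edgeR's quasi-likelihood test called 0, with 3201 windows at an unadjusted p under 0.05. With the SEN libraries averaged into 1 culture and the spread taken from the 4 colonies, 0 windows were called higher (0.0%) and 2 lower (0.00411%), while 2893 had an unadjusted p under 0.05.

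Both windows called at the level of the culture were adjacent and CpG-dense. The window KB708149.1:8247001-8248000 (51 CpGs, 887 to 2913 reads per library) held 38.61, 34.82, 40.48 and 77.23% in SEN against 97.3, 98.12, 98.97 and 99.95% in MTc. It was almost fully methylated in every transformed colony and in 3 of the 4 normal ones (95.47 to 99.52%), and partly so in normal colony replicate 3 (58.31%). Its neighbour, KB708149.1:8248001-8249000 (44 CpGs), held 45.05, 74.84, 59.66 and 66.48% in SEN and 100, 98.78, 98.12 and 97.24% in MTc, with 46.85% in the same normal colony. The differences were -50.8 and -37.03 points, with adjusted p = 0.000537 and 0.00168 at the culture level and 0.00238 for each over 8 libraries (quasi-binomial F test). Day 9 pools ranged from 49.42 to 99.57% in the first window, so intermediate levels there also occurred in pools. On positions shared by the 8 libraries the first window differed by -55.03 points and was no longer called over the 8 libraries (adjusted p = 0.107, quasi-binomial F test). Leaving out any 1 of the 4 colonies ended both culture-level calls, with a smallest adjusted p over all windows of 0.259 to 0.712.

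Among the windows called higher, 3 with 21 to 47 CpGs had low methylation in the colonies and were mostly methylated in the senescent culture. At KB708167.1:15035001-15036000 (47 CpGs), SEN held 92.78, 100, 27.23 and 89.34% and MTc 1.761, 0, 2.919 and 0%. The level was 2.259 ± 3.629% in Nc and 3.86% in the pools, of which 1 vehicle pool reached 26.42%, and SEN replicate 3 stood apart from the other SEN libraries. The window KB708153.1:1664001-1665000 (32 CpGs) held 88.71, 70.32, 72.17 and 96.81% in SEN against 0, 5.645, 19.8 and 17.73% in MTc. Its 21 positions with at least 10 reads in 2 or more libraries of both groups were all higher in SEN. At KB708249.1:1253001-1254000 (21 CpGs), SEN held 82.23, 69.37, 64.55 and 79.27% and MTc 15.64, 20.9, 14.41 and 7.233%, with 4.959% in the B[a]P pools, 16.04% in the vehicle pools and 5.627% in Nc. Adjusted p over the 8 libraries was 0.0174, 0.0174 and 0.00772 for these windows (quasi-binomial F test), and at the culture level it was 0.381 to 0.391. None of the 3 had a position measured in all 8 libraries, so the values of the libraries rest partly on differing positions. The same held for the windows named below on KB708162.1, KB708218.1, KB708308.1, KB708402.1 and KB708214.1.

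Other windows were variable among colonies and uniformly methylated in SEN. The SEN libraries repeat 1 culture whereas the colonies are separate, so the spreads of the groups are not comparable. KB708184.1:8678001-8679000 (24 CpGs) held 91.08, 92.28, 91.37 and 90.56% in SEN (SD 0.7199 points), whereas the colonies held 72.41, 0.7426, 8.683 and 42.27%. The normal colonies spanned 0 to 87.24% and the pools 0.3676 to 57.99% at this window, so a level near that of SEN was reached in 1 normal colony. KB708162.1:11984001-11985000 (15 CpGs) held 84.02, 89.67, 88.44 and 83.38% in SEN and 0, 33.09, 33.97 and 43.53% in MTc. The call at KB708184.1 (adjusted p = 0.0408) was lost without colony 3 or colony 4. It was also lost without any 1 SEN library (adjusted p = 0.0931 to 0.132, quasi-binomial F test). The remaining 3 windows named as higher, on KB708144.1 (start 2192001), KB708218.1 (start 3708001) and KB708142.1 (start 17787001), had 5 to 13 CpGs and differences of 68.87, 57.98 and 57.31 points. In these sparser windows the normal colonies varied widely, from 18.41 to 92.48% on KB708144.1, from 0 to 100% on KB708218.1 and, in 3 measured libraries, from 68.24 to 85.86% on KB708142.1.

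Among the windows called lower, some were almost unmethylated in SEN. KB708128.1:11650001-11651000 (42 CpGs, 731 to 2232 reads) held 0, 0.4149, 1.505 and 0% in SEN against 38.1, 43.28, 60.62 and 62.72% in MTc, a difference of -50.7 points (adjusted p = 0.00238, quasi-binomial F test over 8 libraries; 0.381 at the culture level). All 31 positions measured in 2 or more libraries of both groups were lower in SEN. Normal colony replicate 2 was also at 0% there, the other normal colonies were at 33.52 to 56.6%, and the bypass libraries were at 0 to 10.34%. KB708214.1:7367001-7368000 (15 CpGs) held 3.6, 0.3165, 1.521 and 0.1953% in SEN against 56.9, 45.86, 26.63 and 72.09% in MTc, and 13 of its 16 such positions were lower. There the 4 normal colonies were at 0 to 13.1%, on the side of SEN.

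Other windows were low but not empty of methylation in SEN. KB708273.1:4608001-4609000 (9 CpGs) held 6.107, 15.6, 16.75 and 12.15% in SEN and 77.01, 83.64, 77.46 and 84.58% in MTc, and was at 69.22 to 85.91% in Nc and 37.91 to 97.12% in the pools. With a difference of -68.02 points (adjusted p = 0.00772 by the quasi-binomial F test), it was 1 of 3 named windows still called without each SEN library in turn, beside KB708128.1 and the first window on KB708149.1. At KB708308.1:86001-87000 (12 CpGs) SEN held 0, 25.28, 21.58 and 0% and the transformed colonies 100, 100, 87.26 and 74.64%. There 3 normal colonies were at 0 to 7.619% and the fourth, replicate 3, was at 93.01%, within the range of the transformed colonies. The pools were at 0 to 49.32%, and the call was lost without colony 3 (adjusted p = 0.0511). The windows on KB708190.1 (start 10290001), KB708174.1 (start 8584001) and KB708402.1 (start 100001) had 7 to 14 CpGs and differences of -62.75, -54.47 and -49.85 points. Their positions measured in 2 or more libraries of both groups did not all go the same way, with 9 of 11, 11 of 13 and 10 of 11 lower in SEN. Of the few positions shared by all 8 libraries, 1 of 2 was lower on KB708190.1, and the only one on KB708174.1 was 14.06 points higher in SEN.

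**Figure D3:**
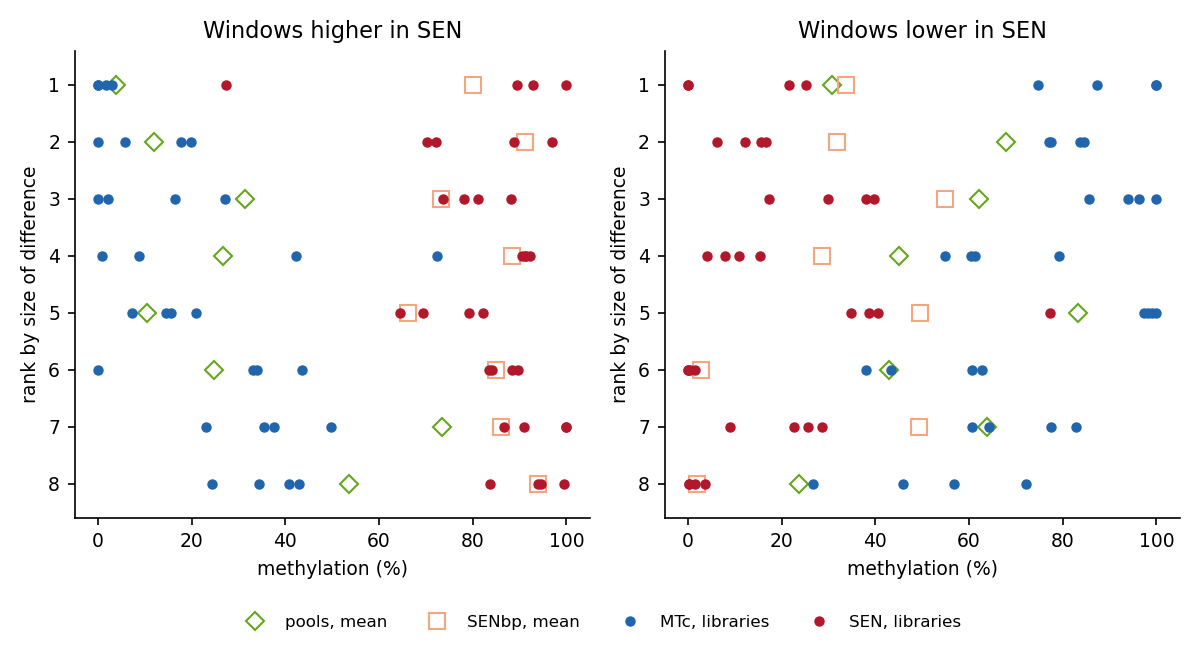
Methylation (%) of the 8 windows with the largest increase (left) and the 8 with the largest decrease (right) in SEN, ranked 1 to 8 by the size of the difference. They were taken from called windows without overlap and with at least 5 positions in each library. Each SEN (red) and MTc (blue) library is a point, the mean of the day 9 pools a green diamond and that of SENbp an open orange square. In each row the SEN points lie on 1 side of all MTc points, and the windows were chosen for that.

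On positions measured in all 8 libraries, most called windows that could be measured kept their direction. These positions are part of the data that chose the windows, so such agreement was largely given in advance. Of the 148 higher windows 71 could be measured on shared positions, 70 of them in the same direction and 65 by at least 10 points, with a median of 32.11. For the 40 lower windows these counts were 21, 20 and 20, with a median of -35.15. Fitted on shared positions alone, which left 16635 windows to test, 31 and 16 of the windows were called again. That fit called 88 windows higher and 47 lower in all, so that 65.2% of calls were higher in place of 78.7%.

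Calls differed by starting level, and at some levels the share of higher calls was largest in dense windows. Of 3620 windows at 5 to 20% in the pools 40 were called higher (1.105%), of 4540 at 20 to 50% there were 37 (0.815%), and of 16160 under 5% there were 31 (0.1918%), against 0.304% of all windows. In the densest quartile these shares were 2.197% at 5 to 20% (21 of 956 windows), 2.74% at 20 to 50% (10 of 365) and 0.2191% under 5% (22 of 10040). Under 5% the sparsest quartile had the highest share, 0.4073% (2 of 491). Higher calls numbered 28 at 50 to 80% (0.2589%), 12 at 80 to 95% (0.1134%) and 0 at 95% or more, a class with a mean of 95.21% in MTc. At 80 to 95% their share was 0.1403, 0.1342, 0.04301 and 0% from sparsest to densest. Lower calls had their highest share at 20 to 50% (13 windows, 0.2863%), followed by 50 to 80% (13, 0.1202%) and 80 to 95% (11, 0.1039%), against 0.0823% of all windows. There were 2 at 5 to 20% (0.05525%), 1 at 95% or more (0.04316%) and 0 under 5%, a class with a mean of 1.802% in MTc. By density, higher calls numbered 21, 24, 47 and 56 from the sparsest to the densest quartile, and lower calls 16, 12, 8 and 4. Of the 11906 densest windows, however, 10040 were under 5%, the class with 0 lower calls. Within 20 to 50% the share of lower calls was 0.2134, 0.2694, 0.3115 and 0.5479% from sparsest to densest. At 50 to 80% it was 0.111, 0.1555, 0.08989 and 0%, and at 80 to 95% 0.1403, 0.05366, 0.04301 and 0.7843%. These counts are descriptions, and the difference between the trends was not tested.

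Few called windows had a called neighbour, and the measured surroundings of higher windows leaned the same way. Within 5 kb, 6 of the 148 higher windows and 2 of the 40 lower ones had a neighbour called in the same direction. Over all windows 0.304% were called higher and 0.0823% lower. Most of the surrounding windows were not measured, so these counts cannot show whether the calls were isolated, and clustering was not tested. The 218 measured but uncalled neighbours of higher windows held 46.66 ± 0.6764% in SEN and 39.3 ± 1.198% in MTc, a difference of 7.369 points, and 72.48% of them were higher in SEN against 57.05% of all uncalled windows. The latter share covers windows of every level, and a share matched for level and density was not computed. The 17 uncalled neighbours of lower windows held 38.83 ± 3.483 and 40 ± 2.335%, and 47.06% of them were higher.

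The bypass libraries of the same culture held nearly the level of SEN in the higher windows, and a level between SEN and MTc in the lower ones. In 99 of the 148 higher windows that were measured in all 24 libraries, SENbp held 59.9 ± 1.466%, close to the 56.28 ± 2.526% of SEN, and 94 of the 99 windows were nearer to SEN than to MTc. The groups outside the culture held 22.42 ± 1.273% (MTc), 27.35 ± 3.65% (Nc), 26.17 ± 0.9209% (B[a]P pools) and 24.71 ± 1.054% (vehicle pools), with 5 to 9 windows nearer to SEN in Nc and in the pools. In 22 lower windows SENbp held 51.59 ± 1.41%, between the 38.7 ± 1.927% of SEN and the 76.28 ± 1.951% of MTc, and 14 windows were nearer to SEN, against 9 in Nc and 7 in each kind of pool. At these windows the transformed colonies were the highest group, above Nc (59.22 ± 5.612%), the B[a]P pools (63.84 ± 1.821%) and the vehicle pools (61.6 ± 5.53%). The windows were chosen on SEN and MTc, whose values in them are therefore extreme.

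**Figure D4:**
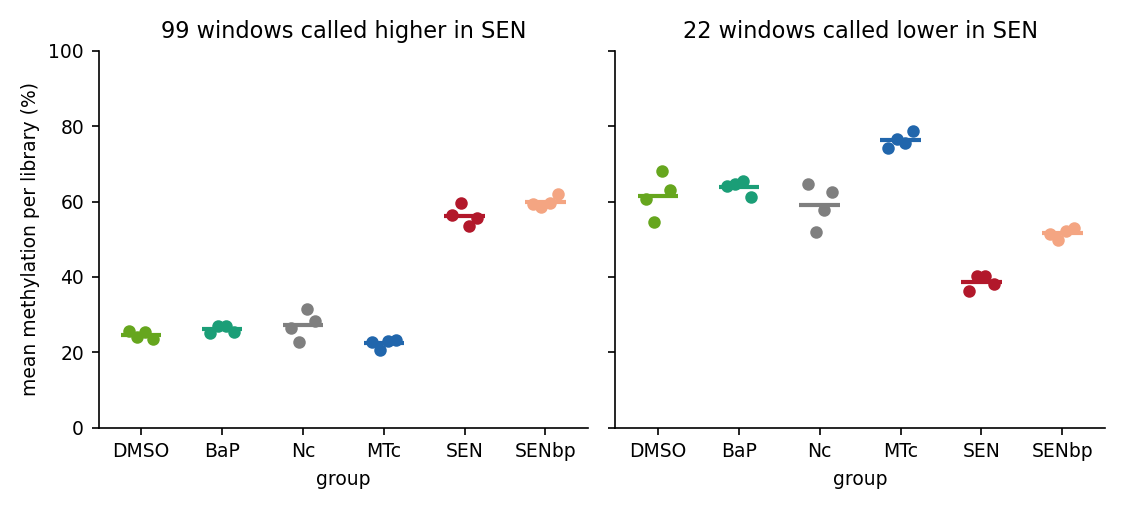
Mean methylation (%) per library (points) and per group (bars) over 99 windows called higher in SEN (left) and 22 called lower (right) that were measured in all 24 libraries. Over the higher windows SEN and SENbp lie at 53.46 to 61.99% and all other libraries at 31.63% or less, and over the lower windows MTc lies above all other groups, at 74.16 to 78.79%.

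Compared with the normal colonies, the senescent culture lay above the range of the transformed colonies in more windows. In 36873 windows measured in these 12 libraries, the SEN libraries had 748, 1243, 616 and 720 windows at least 20 points above the highest MTc colony, and the Nc libraries 295, 288, 552 and 305. No Nc library reached the lowest SEN library (831.8 ± 280 against 360 ± 128.2 windows; exact permutation p = 0.02857, adjusted p = 0.03629). Without the normal colony with 26.01% methylated reads the exact permutation p was 0.05714, in groups of unequal size. At least 20 points below the lowest colony lay 496, 662, 364 and 547 windows in SEN and 1085, 1913, 691 and 552 in Nc, groups that overlapped (p = 0.05714, adjusted p = 0.06886 by the same exact test). SEN replicate 2, with the fewest positions (885970), had the highest count among the SEN libraries in both directions. Each SEN library is a repeat of 1 culture while each Nc library is a colony of its own, and normal and transformed colonies share their fetus.

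**Figure D5:**
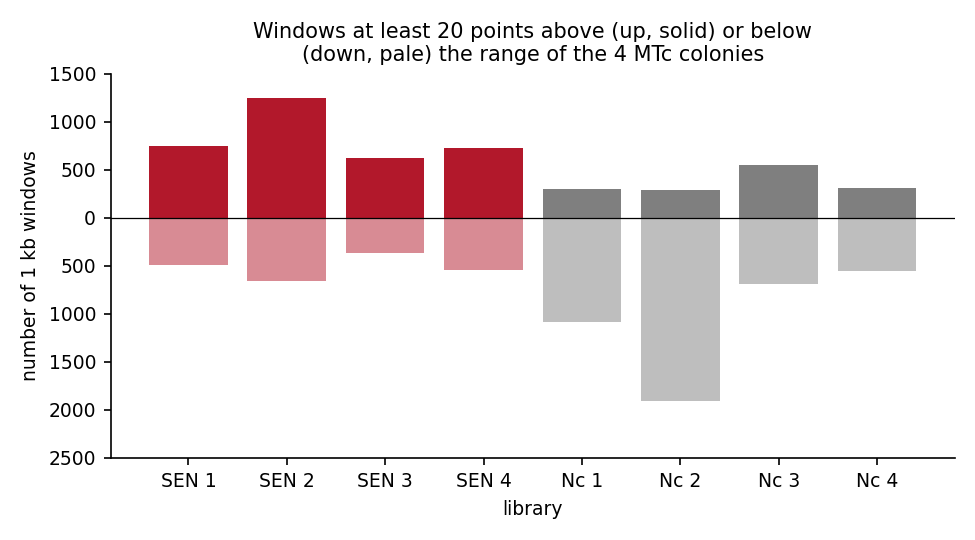
Number of 1 kb windows (of 36873) at least 20 points above the highest (solid bars, upwards) or below the lowest (pale bars, downwards) of the 4 MTc colonies, for each SEN (red) and Nc (grey) library. SEN libraries have 616 to 1243 windows above the range and Nc libraries 288 to 552, while below the range Nc replicate 2 has the most, 1913.

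Over whole profiles, the culture was little farther from the colonies than the colonies were from each other. Over 18254 windows with at least 5 positions per library, the mean absolute difference was 5.627 to 6.332 points between pairs of transformed colonies, 6.039 to 7.408 between SEN and MTc libraries, and 5.611 to 6.957 between normal and transformed colonies. The medians were 6.038, 6.59 and 6.239 points and the ranges overlap, and the difference between them was not tested. Pairs of SEN libraries, although technical repeats, differed by 4.677 to 6.069 points, so repeats of 1 culture showed much of the distance seen between groups. No colony stood out as nearest to the culture, with distances of 6.694, 6.716, 6.437 and 6.739 points for colonies 1 to 4. At windows of 20 to 50% in the pools the median SD between libraries was 12.83 points in SEN, 16.89 in MTc and 17.22 in Nc, whereas under 5% it was 1.342 in SEN and 1.035 in MTc.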

How the data were processed

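Genomic DNA had been made into libraries with a commercial bisulfite kit, per the labels' protocols. The submitters' processing notes name methylKit 1.10.0, R 3.6.1, Bowtie2, Bismark 0.22.1, bcl2fastq 2.20.0.42 and Trim Galore 0.5.0 without their roles. The scaffold coordinates are those of the deposited files, on a build not given in the sources used here, so no gene is named and no sequence shown. The deposited tables hold, per the file headers, coverage as a read count and the percent of reads with C or T for each CpG position and strand, from 10 reads upwards. Coverage times percent gave the methylated reads, which at coverage up to 1000 all lay within 0.06 of a whole number. PCR copies may be included.

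Positions with at least 10 reads outside the top 0.1% of coverage were summed over windows of 1 kb that held 3 or more positions in every one of the 8 libraries, with no filter on the level. The quasi-binomial model had its dispersion (median 24.36) squeezed with limma 3.58.1 within 10 classes of level, with a floor of 1, and Benjamini-Hochberg adjustment over 48608 windows. At the culture level the 4 SEN libraries were averaged, which left 3 residual degrees of freedom. On simulated data in which technical repeats differed by read sampling alone, the 8-library test made many false calls about cultures. The culture-level test also made more there than its threshold aims at. Pairs of real SEN libraries differed by more than read sampling (mean chi-square of 20.01 to 36.86 per position), which the simulation leaves out. Library means were compared by exact two-sided permutation, adjusted over 47 tests. R 4.3.3, edgeR 4.0.16 and Python 3.11.15 were used. Starting levels needed at least 4 of the 8 pools, which per the labels share their fetal source with MTc and not with SEN. The windows named are the 8 largest called increases and the 8 largest called decreases without overlap and with at least 5 positions in each library, and the second window on KB708149.1, chosen after its values were seen. No replicate pair was a duplicate by a chi-square test (mean 20.01 to 44.46 per position). Members, classes and tests were chosen with earlier results of these data known. The contrasts between classes, the test against Nc and the left-out normal colony were chosen after seeing the data.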

Additional observations from a re-analysis of the deposited data

Results flagged for a closer look

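Single libraries stood apart from the other 3 of their group in 5 of the 62 groups of 4 libraries examined, where chance gives about 3.1. SEN replicate 2 was the high value in 3 of them, with 89.32% in windows of 80 to 95% in the pools (the other SEN libraries at 88.54 to 88.62%), 72.32% in the sparsest quartile of CpG density and 66.97% in the second quartile. That library listed the fewest positions of the 8, 885970. In the window KB708167.1:15035001-15036000 SEN replicate 3 was low, at 27.23% against 89.34 to 100% in the other SEN libraries. In the window KB708149.1:8247001-8248000 SEN replicate 4 was high, at 77.23% against 34.82 to 40.48%. As the SEN libraries are technical repeats of 1 culture, these gaps are differences between repeats, and their cause was not tested.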

How the results depend on the processing

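The higher mean of SEN over windows held in every alternative run (1.308 to 1.878 points), as did the classes under 5%, 5 to 20% and 20 to 50%. Counts of called windows did not. Against 148 higher and 40 lower, there were 343 and 110 among windows of 5 to 95% pooled methylation (fewer windows tested), 10 and 3 by limma, 0 and 0 without squeezing (7052 at an unadjusted p under 0.05) or by edgeR (3201), and 88 higher on shared positions. With 1 library left out there were 11 to 187 higher and 4 to 40 lower. With a replicate block 86 were higher and 32 lower, 56 windows being shared with the fit without the block. The numbers do not pair the samples (correlations of -0.002143 to 0.01012, only SEN replicate 2 being closest to its own number). At the culture level, the lower calls were 0 with the 5 to 95% filter, without squeezing, by limma and with 5 positions, 1 on shared positions, and 0 to 2 with 1 library left out, and 1 window was higher at 20 reads.

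By exact permutation tests, the difference at 50 to 80% was 1.795 points at 20 reads (p = 0.1429) and 1.119 on shared positions (p = 0.2571). At 80 to 95% it was 1.07 with Nc starting levels (exact p = 0.02857). With classes set by the MTc levels themselves, which then enter both the class and the difference, it was -0.7577 at 80 to 95% and -2.601 at 95% or more. The latter class gave 0.6449 at 20 reads and the sparsest quartile 1.06 on shared positions (exact p = 0.05714 for both). With 1 library left out, the difference was 0.9865 to 1.999 at 50 to 80%, 0.4795 to 0.9341 at 80 to 95%, 0.6659 to 0.8383 at 95% or more, 0.7914 to 1.465 in the sparsest quartile, 1.167 to 1.888 in the second, 1.128 to 1.777 for the share over 80%, 0.9649 to 1.534 for shared positions and -0.07115 to 0.4637 for the share at 20 to 80%, which was negative without SEN replicate 3 or colony 3 (-0.05486). Of 24 classes of level and density, 10 to 18 passed with 1 library left out. The lowest counts, 10 to 12, came without a SEN library, in groups of unequal size. At 95% or more, the third quartile was -0.05775 at 20 reads and -0.1602 on shared positions, and the densest -0.08281 to 0.7678 with 1 library left out, negative without colony 2. None of the 16 named windows was called by edgeR, limma or without squeezing. Coverage from 10 reads upwards and 3 positions per window limit what single windows show. Except where stated, the cause was not tested.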
